A study of Arabidopsis thaliana with 12 samples.

Results

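The genes described here gave bright array signals in wild-type Arabidopsis thaliana and kept overlapping positions in the brightness order of the pete1 mutant. They were selected on measured values: a probe annotated with exactly 1 gene, a mean wild-type intensity of at least 1.5, and a range of ranks over the wild-type samples that overlapped the range over the mutant samples. Rank 1 is the highest intensity of a sample, and all 3439 probes were ranked. Of 692 probes with 1 gene, 74 reached the minimum, 59 of these overlapped, and 5 of the 59 belong to 9 genes left out by name, which leaves 54 genes. The direct comparison of the genotypes was thus used in choosing the genes, and their differences are given as a description, with no test. An overlap of ranges does not mean equal ranks, and several of the 54 differed in rank at every sample number.

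Total RNA was measured in 6 samples of the wild type (WT) and 6 of pete1, numbered 1 to 6 in each genotype. Both are in the ecotype Columbia 0 and were grown on MS, a plant culture medium. The mutant lacks 1 of the plastocyanin isoforms. Tissue, age, pooling of plants and the number of mutant lines behind the samples are not in the labels, so no tissue was checked against markers, and spreads between samples may be technical.

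Plastocyanin is a small copper protein of the thylakoid lumen that carries electrons from the cytochrome b6f complex to photosystem I. Genes for chloroplast proteins are mostly in the nucleus, and signals from the chloroplast can change their transcripts.

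The deposited intensities had a mean of 1.05 to 1.07 in WT and 0.917 to 1.005 in pete1, whereas the medians were 0.485 to 0.627 and 0.279 to 0.331. The 10 brightest probes held 13.0% ± 1.72 (SD, n = 6) of the summed intensity in WT and 17.2% ± 1.29 in pete1. The same rank therefore did not stand for the same intensity in both genotypes, and both are given. Intensities of different probes also depend on the probe, so an order between genes is an order of signals and not of transcript copies. PETE1, the mutated gene, had no probe of its own in the annotation. It was not analysed here and could not serve as a check of the labels.

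The 54 genes had mean WT intensities between 1.52 and 31.9, with a median of 2.07, and none was listed at 0 in any sample. Together they made up 5.18% ± 0.606 (SD, n = 6) of the summed intensity of a WT sample and 5.63% ± 0.228 of a pete1 sample. Their median rank was 280 ± 15.3 in WT and 286 ± 30.9 in pete1. Between 6 and 9 of them stood among the 100 brightest probes of any sample. The plot of ranks shows all 54.

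**Figure D1:**
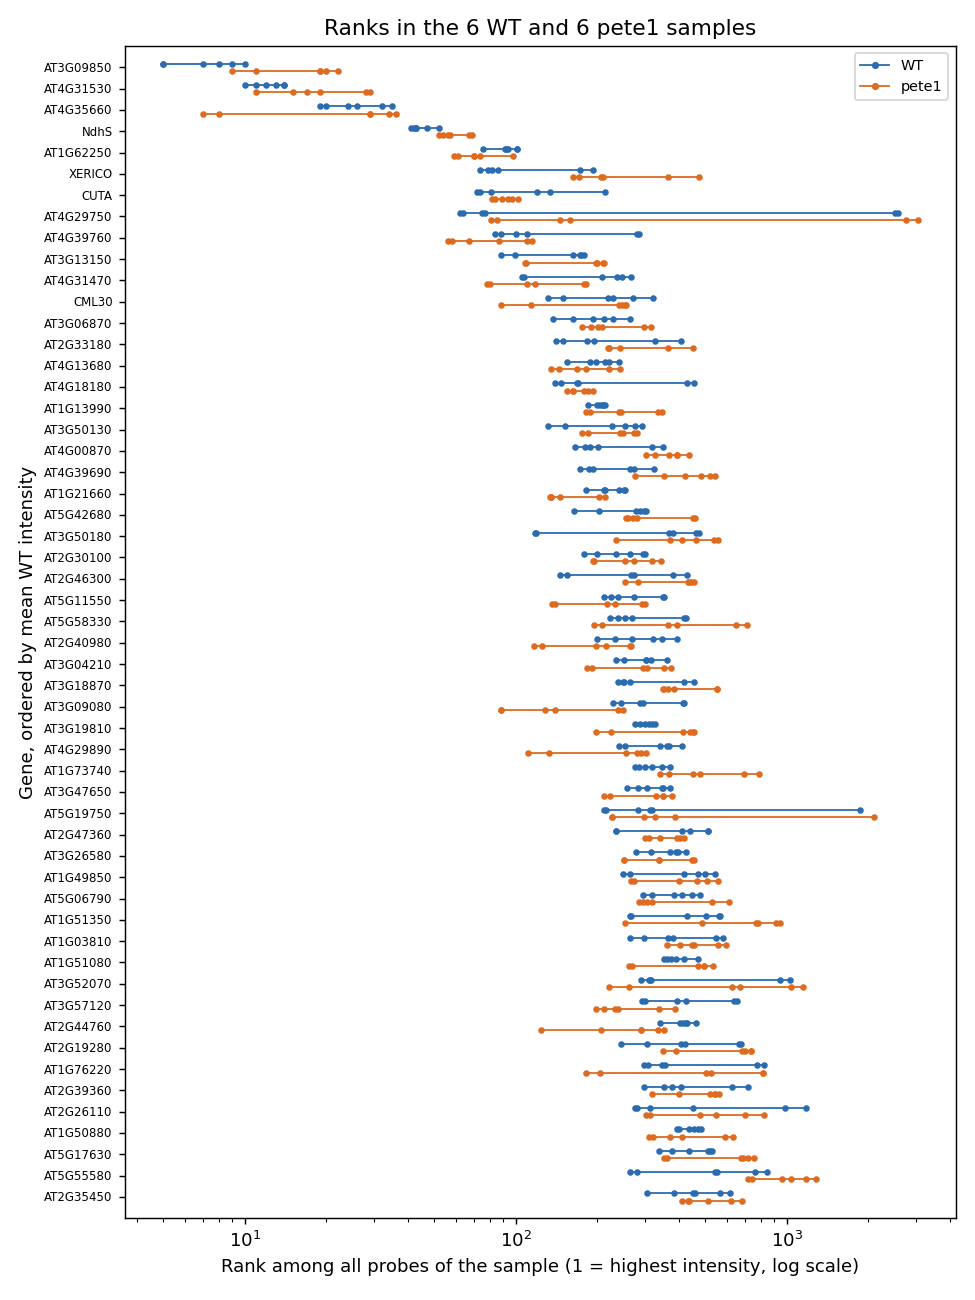
Rank of each of the 54 genes among the 3439 probes of a sample (log axis, 1 is the brightest), with 1 point for each of 6 WT samples (blue) and 6 pete1 samples (orange) and a line from the lowest to the highest rank of a genotype. The lines of the genotypes overlap for every gene, as the selection required; AT4G29750 and AT5G19750 span the widest ranges.

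Only 6 of the 54 genes have a name or description beyond the locus and clone in the annotation. NdhS belongs to the NADH dehydrogenase-like complex of the chloroplast, which returns electrons from the stroma to the plastoquinone pool. AT5G58330 is the NADP-dependent malate dehydrogenase, a thioredoxin-activated chloroplast enzyme that turns surplus NADPH into malate for export. CUTA is the plant member of the CutA family, named for copper tolerance in bacteria, and mTERF9 (AT5G55580) belongs to the mTERF family, which acts on organelle transcripts. XERICO is a RING-type zinc-finger protein linked to abscisic acid levels, and CML30 is a calmodulin-like protein, a family of calcium sensors. The other 48 are identified by locus alone, and no role is given for them. Matched by keyword to functional classes, 1 gene fell among photosynthesis (NdhS), 1 among redox proteins (AT5G58330), 1 among organelle RNA proteins (mTERF9), and 51 in no class.

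NdhS had nearly equal mean intensities in the genotypes as deposited. It ranged from 6.41 to 9.21 in WT (median 8.32) and from 6.20 to 9.81 in pete1 (median 8.33). The means were 8.03 ± 1.06 (SD, n = 6) and 8.13 ± 1.49, a log2 ratio of pete1 over WT of 0.02. After quantile normalisation the log2 difference was -0.36, and over the sample medians the log2 ratio was 0.79. Its ranks nevertheless met at a single value, with 41 to 52 in WT and 52 to 69 in pete1, and at each of the 6 sample numbers the pete1 rank was the lower placed. In both genotypes samples 1 and 2 were the dimmest.

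For the NADP-dependent malate dehydrogenase, AT5G58330, the WT samples lay between 1.64 and 2.40 (median 2.21). The pete1 samples lay between 0.782 and 2.41 (median 1.48). In samples 5 and 6 the values were 2.23 and 2.40 in WT against 2.32 and 2.41 in pete1, whereas in samples 3 and 4 they were 2.18 and 2.32 against 0.846 and 0.782. The log2 ratio was -0.15 in samples 1 and 2, -1.47 in samples 3 and 4 and 0.03 in samples 5 and 6. The ratio over all samples was -0.41, and the gap lay mainly at samples 3 and 4.

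CUTA lay between 2.64 and 4.90 in WT and between 4.79 and 6.43 in pete1. It was brighter in pete1 at all 6 sample numbers, with means of 4.02 ± 0.951 (SD, n = 6) and 5.49 ± 0.738 and a log2 ratio of 0.45. Its rank was better in pete1 at 3 of the 6 numbers, with 72 to 214 in WT and 82 to 102 in pete1. WT samples 3 and 4, at 2.64 and 4.90, differed more than any other consecutive samples of this gene.

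XERICO and mTERF9 were dimmer in pete1 at all 6 numbers, in intensity and in rank. XERICO ranged from 2.66 to 5.52 in WT (median 5.06) and from 1.18 to 2.90 in pete1 (median 2.30), a log2 ratio of -1.01. The brightest pete1 samples, 5 and 6, were level with the dimmest WT samples, 1 and 2, and the genotypes overlapped only there. For mTERF9 the WT samples lay between 1.11 and 2.23 and the pete1 samples between 0.436 and 0.780, with no overlap in intensity. Its log2 ratio of -1.32 was the lowest of the 54, and its mean rank in pete1 was 447 places further down. The WT ranks of 263 to 846 and the pete1 ranks of 721 to 1279 still overlapped, at the low end of WT, where samples 1 and 2 were dimmest.

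CML30 had nearly the same mean in both genotypes, 2.66 ± 0.757 (SD, n = 6) in WT and 2.98 ± 1.55 in pete1, with a different course over the sample numbers. In pete1 it was at 4.45 and 5.44 in samples 1 and 2 and between 1.99 and 2.02 in the other 4. In WT samples 3 and 4 were the highest, at 3.45 and 3.77, and the rest lay between 1.92 and 2.37. The log2 ratio was 1.28 in samples 1 and 2 but -0.85 in samples 3 and 4.

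**Figure D2:**
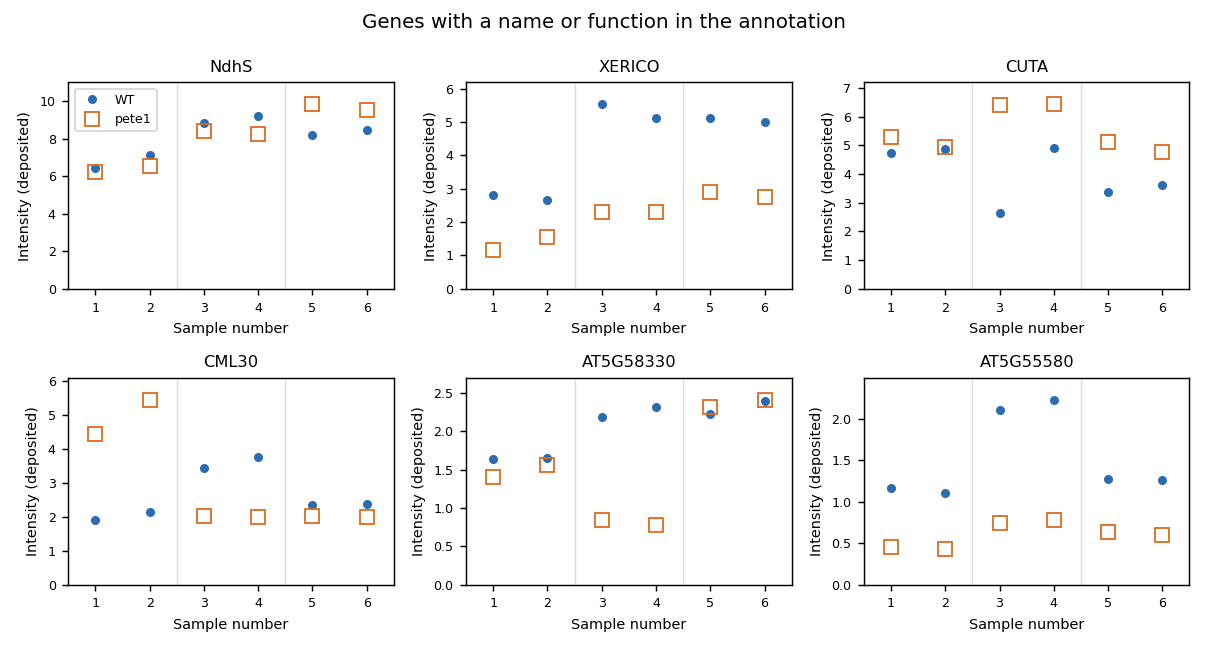
Deposited intensity against sample number for the 6 genes with a name or function in the annotation, with WT as filled circles and pete1 as open squares. Grey lines separate the pairs of consecutive numbers (1 and 2, 3 and 4, 5 and 6). XERICO and AT5G55580 (mTERF9) lie lower in pete1 at every number, CUTA lies higher, and CML30 is highest in pete1 samples 1 and 2 and, within WT, in samples 3 and 4.

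The largest signals among the 54 came from AT3G09850, AT4G31530 and AT4G35660. AT3G09850 ranged from 21.6 to 44.2 in WT and from 18.8 to 38.0 in pete1, and samples 3 and 4 were the brightest in both genotypes. It was dimmer in pete1 at all 6 numbers, with a log2 ratio of -0.31 and ranks of 5 to 10 in WT and 9 to 22 in pete1. After quantile normalisation its log2 difference was -0.78, and over the sample medians its log2 ratio was 0.45. AT4G31530 ranged from 18.0 to 26.7 in WT and from 14.1 to 34.4 in pete1. Its log2 ratio was 0.08, with -0.50 after quantile normalisation and 0.84 over the sample medians. In both genotypes it was dimmest in sample 1 and brightest in sample 6, and its pete1 rank was the lower placed at all 6 numbers. These genes, with NdhS and AT4G35660, had the narrowest rank spans over the 12 samples, 17 to 29 places. AT3G13150, the 10th in mean WT intensity, ranged from 2.68 to 4.37 in WT and from 2.26 to 4.35 in pete1. Its log2 ratio was -0.12 over all samples. It was -0.64 in samples 1 and 2, -0.47 in samples 3 and 4 and 0.66 in samples 5 and 6.

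Higher intensities in pete1 were clearest for AT3G09080, AT4G39760, AT4G31470 and AT1G62250. AT3G09080 ranged from 1.65 to 2.37 in WT and from 2.18 to 6.17 in pete1, and its log2 ratio of 0.98 was the highest of the 54. Its pete1 samples 3 and 4 were at 5.97 and 6.17, far above the other pete1 samples. AT4G39760 had the same course over the sample numbers in both genotypes: samples 1 and 2 were dimmest and samples 5 and 6 brightest in each, with a range of 2.05 to 4.98 in WT and 4.46 to 9.22 in pete1 (log2 ratio 0.87). AT4G31470 ranged from 2.19 to 4.11 in WT and from 2.93 to 6.21 in pete1 (log2 ratio 0.65). AT1G62250 ranged from 4.11 to 5.31 in WT and from 5.26 to 8.15 in pete1 (log2 ratio 0.62). All 4 genes were brighter in pete1 at each of the 6 numbers, and for AT1G62250 only WT sample 4 and pete1 sample 2 overlapped.

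On the lower side, AT4G39690 went from a range of 1.82 to 3.14 in WT to one of 1.06 to 1.84 in pete1, a log2 ratio of -0.89. Only WT sample 6 and pete1 sample 3 overlapped in intensity. Besides mTERF9, AT4G00870 and AT1G73740 had intensity ranges that did not meet although their rank ranges did. AT4G00870 was at 1.74 to 2.97 in WT and 1.32 to 1.73 in pete1, and AT1G73740 at 1.66 to 2.08 and 0.743 to 1.54. Their log2 ratios were -0.76 and -0.75 as deposited, but 0.05 and 0.03 over the sample medians. These 2 genes lie outside the naming rule and were chosen after their values were seen.

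Over the whole set, 37 genes (68.5%) had a lower mean intensity in pete1 and 17 a higher one. The mean was lower in pete1 for 80.7% of all probes and 60.9% of the bright ones described next. The median log2 ratio was -0.23, beside -0.71 over all 3439 probes and -0.22 over the 437 probes of any annotation with a mean WT intensity of at least 1.5. The split depended on the scale, with 32 lower and 22 higher after quantile normalisation (median -0.090) and 4 lower and 50 higher once each sample was divided by its own median (median 0.60). The sample medians averaged 0.544 in WT and 0.309 in pete1, so this division raises the ratio of any probe and not of these genes in particular. XERICO and mTERF9 were among the 4 genes lower under all 3 scalings, and 15 genes were higher under all 3, AT3G09080, AT4G39760, AT4G31470, AT1G62250 and CUTA among them. The minimum was set on WT alone. When it was set on the pete1 mean, an alternative chosen after seeing the data, 41 genes qualified, 35 of them shared, and 18 were lower and 23 higher in pete1 (median log2 ratio 0.11).

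In mean rank, 34 of the 54 genes stood lower in pete1 and 20 higher. Among the 437 bright probes 269 stood lower and 167 higher, and among all probes 1695 and 1742. The median shift of the 54 was 16.0 places down. Without WT sample 3 it was 8.35, without WT sample 6 9.40, without pete1 sample 5 10.2 and without pete1 sample 2 10.6. Over the 437 bright probes it was 17.7 places down. At all 6 sample numbers 9 genes (16.7%) had the lower rank in pete1 and 7 (13.0%) the higher rank, beside 15.5% and 19.5% of all probes and 23.6% and 12.6% of the 437 bright ones. Over all probes 16.3% had rank ranges that did not overlap, and over the 74 bright probes with 1 gene 20.3% (15, of which 12 were lower and 3 higher in pete1). None of the 54 can be among these, by the selection. Intensity ranges did not overlap for 3 of the 54, all lower in pete1, beside 34.4% of all probes. With limma on quantile-normalised values, 9 of the 54 were called (2 higher and 7 lower) beside 21.7% of all probes, and on the log2 intensities as deposited 20 (6 higher and 14 lower) beside 54.1%. After median centring it called 26, all of them higher in pete1, beside 29.7% of all probes. With consecutive numbers as a random block, at an estimated correlation, limma called 0 of the 54 (11 at an unadjusted p under 0.05) beside 4.74% of all probes, and in averages of those numbers 0 (3 likewise) beside 0.204%. With the sample number as a block it called 13 (6 higher and 7 lower) beside 21.6%. Leaving out 1 sample gave 5 to 8 of the 54, with 5 without pete1 sample 1 or without any single one of WT samples 1 to 5. Since the selection used the same contrast, nothing is read from these counts.

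**Figure D3:**
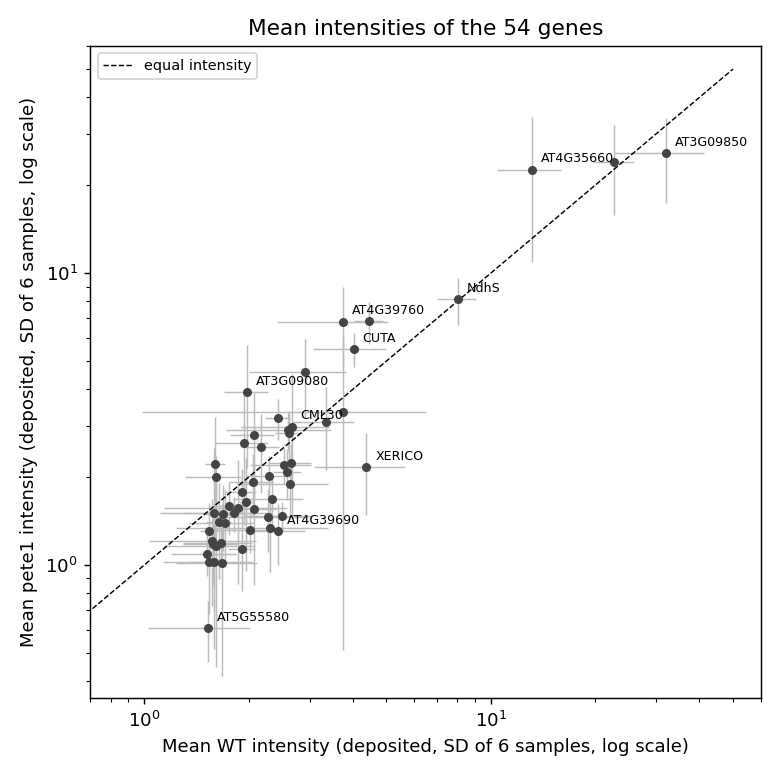
Mean deposited intensity in pete1 against WT for the 54 genes on log axes, with bars for the SD of 6 samples in each direction and a dashed line at equal intensity. Of the 54 genes 37 lie below the line and 17 above; AT5G55580 (mTERF9) lies furthest below and AT3G09080 furthest above.

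Most of the spread within a genotype lay between consecutive numbers taken as pairs (1 and 2, 3 and 4, 5 and 6). The median difference inside a pair was 5.07% of the pair's mean in WT and 5.005% in pete1, whereas the median coefficient of variation over 6 samples was 20.3% and 27.9%. Differences between the pairs made up a median of 93.9% of a gene's sum of squares in WT and 97.8% in pete1 (93.0% and 86.1% over all probes). An SD over 6 samples therefore mostly reflects 3 values, and whether consecutive numbers share plants, RNA or an array is not in the labels. Averaging them to 3 against 3 left 51 of the 54 genes with overlapping rank ranges.

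Within those pairs of numbers, 15 genes were dimmer in pete1 in all 3, 7 were brighter in all 3, and 32 changed side. The shares of the 54 were 27.8% and 13.0%. Among all probes 58.5% were dimmer in all 3 and 4.86% brighter, and among the 437 bright probes 38.0% and 18.1%. The selection left out probes whose rank ranges did not overlap, so nothing is read from these shares. The 7 brighter ones were CUTA, AT1G62250, AT4G39760, AT4G31470, AT1G21660, AT3G09080 and AT3G57120; AT1G21660 and AT3G57120 were named after their values were seen. Their log2 ratios within a pair ranged from 0.09 (CUTA, samples 1 and 2) to 1.60 (AT3G09080, samples 3 and 4).

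A group of 11 genes was brighter in pete1 samples 1 and 2 than in the rest of pete1, both samples lying above the other 4 and their mean at least 1.5 times as high. The group was picked after its values were seen; the same held for 13.8% of all probes and 15.1% of the 437 bright ones, against 20.4% of the 54. In the same samples 12 of the 54 lay as far below the rest of pete1 (22.2%, beside 18.9% of all and 22.7% of bright probes), XERICO, mTERF9 and AT4G39760 among them. In pete1 samples 5 and 6, 11 lay as far above (20.4%, beside 14.0% and 10.5%), AT5G58330 and AT4G31470 among them, and 7 as far below (13.0%, beside 7.82% and 7.78%). In pete1 samples 3 and 4, 8 lay as far above (14.8%, beside 8.46% and 11.9%) and 5 as far below (9.26%, beside 9.10% and 9.15%). In WT the counts ran from 0 to 10 for each pair of numbers and direction. These are 0% to 18.5% of the 54, beside 4.59% to 20.5% of all probes and 4.58% to 13.7% of bright ones. Wide ranges within a genotype make an overlap of rank ranges more likely, so the selection favours such genes. Nothing is read from the shares above. In AT4G35660 pete1 samples 1 and 2 were at 38.3 and 37.2, and the other pete1 samples lay between 13.9 and 16.0, within the WT range of 11.1 to 17.3. AT2G40980 was at 4.02 and 4.34 in pete1 samples 1 and 2 and at 1.89 to 2.37 in the others, against 1.71 to 2.52 in WT. AT4G29890 was at 4.498 and 3.92, against 1.73 to 1.94 in the others and 1.66 to 2.42 in WT. In these 3 genes the remaining pete1 samples stayed inside the WT range, and the log2 ratio was highest in samples 1 and 2. AT4G35660 was also brighter in pete1 in samples 5 and 6, at a log2 ratio of 0.31, beside -0.07 in samples 3 and 4. In samples 3 and 4 and in samples 5 and 6 the ratios were -0.09 and -0.07 for AT2G40980. For AT4G29890 they were -0.33 and 0.07. CML30, AT3G19810, AT1G51080, AT1G51350, AT2G44760, AT1G76220, AT2G39360 and AT2G26110 were the others, and apart from CML30 these, AT2G40980 and AT4G29890 were named after their values were seen. In AT1G76220, WT samples 1 and 2 were also the brightest of WT, at 1.96 and 2.06, and the pete1 values were 2.55 and 3.0.

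AT4G29750 and AT5G19750 were dim at the same sample numbers in both genotypes. AT4G29750 fell to 0.273 and 0.290 in WT samples 5 and 6 and to 0.0549 and 0.110 in pete1 samples 5 and 6. In samples 1 to 4 it lay between 4.68 and 6.32 in WT and between 3.53 and 6.42 in pete1. This gave the widest rank span of the 54, 2982 places, and the rank ranges of the genotypes overlapped over 2503 of them. AT5G19750 dropped in sample 5 of both genotypes, to 0.480 in WT and 0.242 in pete1, and stood at 2.03 and 1.37 in sample 6. Its other samples lay between 1.87 and 2.46 in WT and between 1.73 and 2.15 in pete1. AT3G52070, whose span of 925 places was the fourth in width after these and mTERF9, was low in WT samples 1 and 2 (0.970 and 1.04) and in pete1 samples 1 to 4 (0.514 to 0.898). Samples 3 and 4 of this gene were the brightest in WT (1.91 and 2.0) and the dimmest in pete1; the difference in course was not tested. For 20 of the 54 genes (37.0%) the same pair of numbers was the brightest in both genotypes, beside 34.7% of all probes.

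**Figure D4:**
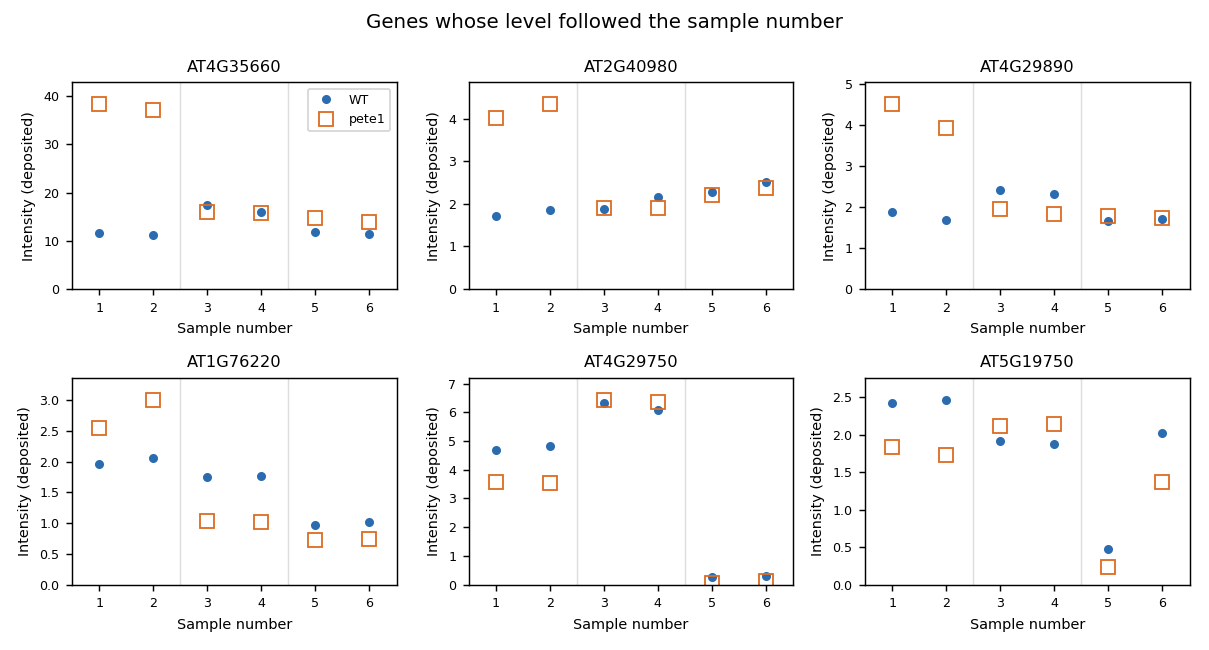
Deposited intensity against sample number for 6 genes, with WT as filled circles and pete1 as open squares. AT4G35660, AT2G40980, AT4G29890 and AT1G76220 are brightest in pete1 samples 1 and 2, AT4G29750 is near 0 in samples 5 and 6 of both genotypes, and AT5G19750 is low in sample 5 of both.

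By position in the RefSeq gene order of the TAIR10.1 assembly, 3 gene couples of the set lie with 10 or fewer genes between them. AT3G50130 and AT3G50180 lie outside the naming rule. AT3G50130 and AT3G50180, with 4 genes between them, had log2 ratios of -0.20 and -0.79. AT4G31470 and AT4G31530, with 5 between, had 0.65 and 0.08, and AT4G39690 and AT4G39760, with 10 between, had -0.89 and 0.87. Within each of these 3 couples the ratios differed in size, and in the last couple the signs were opposite. No couples of distant genes were set beside them.

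Near the thresholds, the lowest mean WT intensities inside were those of AT2G35450 (1.52), mTERF9 (1.52) and AT5G17630 (1.54). The highest outside were chr31 (1.49), AT2G28540 (1.49) and AT1G50770 (1.49). By rank, NdhS met at 1 rank only. The overlap ran from rank 9 to 10 for AT3G09850 and from 11 to 14 for AT4G31530. Just outside, the nearest ends of the ranges were 2 ranks apart for CCL and for AT2G27290 and 4 apart for LpxA. CCL had ranks of 21 to 34 in WT and 36 to 60 in pete1, and AT2G27290 had 4 to 9 and 11 to 18.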

How the data were processed

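Total RNA of 6 WT and 6 pete1 samples was measured on arrays. The authors deposited linear intensities, 1 per probe and sample. How they read, background-corrected and scaled them is not given in any source used here. Zeros, a cap at 100 and means near 1 were read from the values. No measure of signal over background was used, and precision is limited by the number of arrays. Genes were named through the platform annotation and RefSeq's TAIR10.1 gene table (690 of 692 probes with 1 gene matched a locus, including all 54 genes described); 870 probes had several genes and 1877 none. No sequence is shown.

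Ranks were taken within a sample over all probes, ties averaged. Ratios are log2 of mean deposited intensities. For the share of probes called, limma 3.58.1 (R 4.3.3, lmFit and eBayes) compared pete1 with WT on quantile-normalised log2(intensity + 4.74e-05), two-sided, Benjamini-Hochberg over 3439 probes, threshold 0.05. The fit was tested on simulated data in which all samples were independent. That setting leaves out the likeness of consecutive numbers, so it does not show how many calls are false in these data. Deviations of equal-numbered WT and pete1 samples correlated at 0.221 to 0.452 in all 6 cases. No correlation of unequal numbers is set beside these, so they do not show that the numbers in the titles pair the samples. The number was also fitted as a block, on the assumption that they do.

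The genes, lists and tests were chosen with earlier results of these data known. Genes named were the 12 brightest in WT, the 2 brightest of each keyword class, the 4 widest and 4 narrowest in rank span, those next to each threshold (3 inside and 3 outside), the 3 highest and 3 lowest ratios, and any gene with more than 1 probe (0 genes). Exceptions are marked.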

Additional observations from a re-analysis of the deposited data

Results flagged for a closer look

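Dixon's criterion was applied to 108 groups of 6 deposited intensities (each gene in each genotype), and 5 groups held a sample that lay apart. By chance about 5% of groups would, if their values were independent. AT1G62250 was at 5.31 in WT sample 4, with the other WT samples between 4.11 and 4.44. AT3G50180 was at 2.08 in pete1 sample 4, above the others at 1.03 to 1.41. AT5G19750 was at 0.480 in WT sample 5, with the others between 1.87 and 2.46. AT1G51350 was at 2.19 in pete1 sample 2, where the others lay between 0.622 and 1.16. AT2G44760 was at 4.14 in pete1 sample 2, above the others at 1.52 to 2.49.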

How the results depend on the processing

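The cause of each change below was not tested. Against 54 genes, the lower minimum gave 86 and a minimum of 2 gave 30, as more or fewer probes then qualify. Further settings gave 41 to 55, and the sets without 1 sample held 51 to 56. Dividing by the sample median gave 42, of which 33 were shared, and 41 genes were kept whichever sample was left out. The median rank shift of 16.0 places was 8.35 to 16.8 on leaving out 1 sample, and 2.08 places when only the 692 probes with 1 gene were ranked. The median log2 ratio of -0.23 was -0.090 after quantile normalisation and 0.60 over the sample median, and -0.25 to -0.21 on leaving out 1 sample. Against 746 probes called by limma, 1861 were called as deposited, 163 when consecutive numbers formed a random block and 7 in their averages, and 550 to 722 on leaving out 1 sample. With the random block and with the averages, limma called 0 of the 54 genes (11 and 3 had an unadjusted p under 0.05). The sample number as a block gave 743 probes (replicate block), 559 of them shared, and 13 of the 54 genes. Among these the higher calls went from 2 to 6 and the lower calls stayed at 7 in number. Signal over background was not known.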
